A study of Mus musculus with 4 samples.

Results

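The genes described here are the mouse genes for mitochondrial ribosomal proteins, taken as every protein-coding gene whose symbol is Mrpl or Mrps followed by a number. The rule used symbols only and found 78 of the 21887 protein-coding genes in the GRCm38.p6 gene table. Of these, 51 code for proteins of the large subunit and 26 for proteins of the small subunit. Mrps30 and Mrps18a carry small-subunit names but their proteins sit in the large subunit, and they were counted there. The remaining gene, Mrps36, has kept its ribosomal symbol although its protein is a subunit of the ketoglutarate dehydrogenase complex.

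Mitochondrial ribosomes translate the few mRNAs that the mitochondrial genome encodes, which are core subunits of the respiratory chain and ATP synthase. Their RNAs come from mitochondrial DNA, whereas all of their proteins are encoded in the nucleus, transcribed by RNA polymerase II (Pol II), translated in the cytosol and imported. Some of the proteins have counterparts in bacterial ribosomes and others were added during mitochondrial evolution.

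Chromatin of 4 organs of C57BL/6 mice, namely heart, kidney, liver and lung, was immunoprecipitated with the antibody 4H8 against the C-terminal domain of Pol II and sequenced. Organs of 2 mice had been flash frozen, and no treatment or mutation is named in the labels. Each organ gave 1 list of called regions and the sources used here do not say whether it pools both mice. There are thus no replicates and no test between organs was possible. Counting intervals cover counting error only, on tags shared out evenly along each region. In whole organs, fewer cells of a type and less Pol II per cell cannot be told apart.

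The heart list was built from 9880184 tags, the kidney list from 16589890.5, the liver list from 20058183 and the lung list from 13296938, and 32.1 to 55.1% of the tags lay in called regions. The organ labels were checked against markers, each called covered where at least 50% of the gene span lay inside regions. All 6 cardiomyocyte markers were covered in heart and in no other organ, and all 6 hepatocyte markers in liver and in no other organ. All 6 tubule markers were covered in kidney, and 1 of them, Cdh16, in heart too. All 6 lung epithelial markers were covered in lung, but Ager was covered in all 4 organs and Sftpc also in liver (74.7% of its span). Among markers of other cell types, 2 of 4 endothelial genes, Kdr and Pecam1, were covered in heart and lung, where Cdh5 (38.7 and 32.7%) and Tek (16.6 and 27.4%) were not. Of 4 leukocyte genes the macrophage and granulocyte gene Lyz2 was covered in lung (75.1%), but not Cd79a (30.3%), Ptprc (4.79%) or Cd3e (0%). Of 3 fat-cell genes Adipoq and Cidec were covered in liver (70.7% and 95.5%), where Plin1 was listed at 0. None of the 3 erythroid markers was covered. Their part in the values below was not tested.

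Pol II regions were found at the start of most mitochondrial ribosomal protein genes in every organ. A start of transcription was given in the RefSeq promoter table for 69 of the 78 genes, with several starts for 3 of them. In 7 genes, Mrps23 among them, a listed start lies more than 1 kb inside the span of the gene table, so a region near a start need not be near a gene end. A region lay within 1 kb of a start in 58 of them in heart, 67 in kidney, all 69 in liver and 60 in lung. The same call was made for 49.7% of all genes with a start in heart and 54.8% in kidney, with 51.4% in liver and 52.4% in lung. The start base itself lay inside a region in 76.8% of the 69 genes in heart and 91.3% in kidney, with 95.7% in liver and 72.5% in lung, against 39.2, 45.4, 45.4 and 39.3% of all genes. At 5 kb downstream of the start the shares of the 69 genes had dropped to 34.8% in heart and 40.6% in kidney, with 39.1% in liver and 34.8% in lung. Over all genes the share dropped as well, to 19.2% in heart and 25.5% in kidney at that distance. The genes for cytosolic ribosomal proteins, the closest functional relatives, still had 52.4 to 77.8% of their 63 starts inside a region at that distance. The cytosolic genes are the shorter ones, with a median span of 3.17 kb against 7.69 kb, so this position lies beyond the end of more of them.

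**Figure D1:**
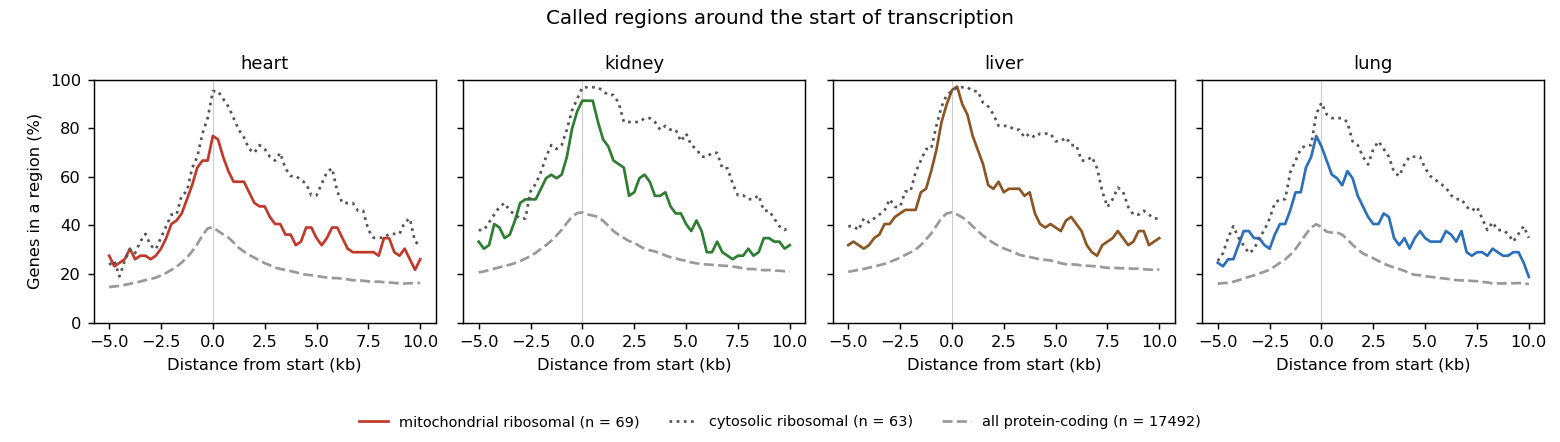
The x axis is the distance from the annotated start in kb, in the reading direction, and the y axis the percentage of genes whose base at that distance lay inside a called region, with 1 panel per organ. Solid coloured lines show 69 mitochondrial ribosomal protein genes, dotted lines 63 cytosolic ribosomal protein genes and dashed lines 17492 protein-coding genes, and the solid line peaks at or next to the start in each organ, with 72.5 to 95.7% of the genes in a region at the start base.

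The sequences before the starts were searched because the regions centre there. In windows from 250 bases before to 50 bases after the start, on both strands, the ETS motif CCGGAAG bound by GABP was present in 24 of 69 members (34.8%) and in 11.9% of all 17492 windows. The NRF1 motif, GCGC then any base then TGCGC, was present in 13 (18.8%) against 6.66%, and the YY1 motif AAGATGGCG in 8 (11.6%) against 1.92%. Related gene groups also held the ETS and YY1 letters more often than all windows. For NRF1 this held in the respiratory chain genes, ATP synthase subunits included. The cytosolic ribosomal protein genes, with the NRF1 letters in 5 of 63 windows, were near the share of all windows. Of the windows of cytosolic ribosomal protein genes 38.1% held the ETS, 7.94% the NRF1 and 6.35% the YY1 motif, and of those of respiratory chain genes 23.2, 23.2 and 8.70%. The general promoter elements gave other shares. CCAAT was present in 39.1% of members and 39.2% of all windows, the GC box GGGCGG in 49.3% and 46.3%, and TATAAA in 5.80% and 13.3%. No motif contains the letters of another, although matches can overlap at their edges, and a match is a description of letters, not of a bound site. Members with the ETS motif had a median of 16.2 tags per kb in heart and 15.0 in kidney, with 11.5 in liver and 10.7 in lung. Those without had 5.08, 9.93, 8.05 and 3.67. Members with the YY1 motif had lower medians than those without, at 6.26 against 10.1 in heart and 5.57 against 13.4 in kidney, with 5.11 against 9.46 in liver and 3.13 against 6.34 in lung. These medians do not account for span, and tags per kb were lower in longer members (below). The YY1 set includes Mrps27 (70.8 kb), Mrpl42 (21.1 kb) and Mrps18a (17.9 kb). Only Mrpl36 (3.68 kb) and Mrps24 (3.72 kb) in it were shorter than the median member (7.69 kb). For the NRF1 motif the medians with and without were 10.1 and 8.37 in heart and 13.4 and 10.7 in kidney, with 8.05 and 9.47 in liver and 6.27 and 5.91 in lung. The sets overlapped, since Mrpl3, with the ETS motif, was listed at 0 in heart and Mrpl49, without it, had 36.1.

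The 250 bases before the start are shown for 6 members that the results below turn on, from RefSeq on GRCm38.p6, 5′ to 3′ in the reading direction, with matches to the NRF1, ETS, YY1 and CCAAT letters on either strand in capitals. Mrps18b had the most tags per kb by the mean over organs (chr17:35916441-35916690, minus strand). Mrpl12 holds the NRF1 letters (chr11:120484387-120484636, plus strand) and Mrpl43 the ETS letters at 2 places (chr19:45006443-45006692, minus strand). The sequence before Mrps11 holds the YY1 letters and also the start of Mrpl46 on the opposite strand (chr7:78782881-78783130, plus strand). Among the members with tags in all 4 lists, Mrps6 had the largest ratio between organs (chr16:92058086-92058335, plus strand). Mrpl3 had the fewest tags (chr9:105053018-105053267, plus strand).
Mrps18b: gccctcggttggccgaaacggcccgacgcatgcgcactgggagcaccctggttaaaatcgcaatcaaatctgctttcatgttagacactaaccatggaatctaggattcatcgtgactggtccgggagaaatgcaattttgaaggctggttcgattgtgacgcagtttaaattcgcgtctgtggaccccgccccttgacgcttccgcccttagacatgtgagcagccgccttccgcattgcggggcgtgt
Mrpl12: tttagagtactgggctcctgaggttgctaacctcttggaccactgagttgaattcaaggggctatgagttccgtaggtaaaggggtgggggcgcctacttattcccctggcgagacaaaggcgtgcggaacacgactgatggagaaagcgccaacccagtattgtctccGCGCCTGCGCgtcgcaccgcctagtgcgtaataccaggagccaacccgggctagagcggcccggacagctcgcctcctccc
Mrpl43: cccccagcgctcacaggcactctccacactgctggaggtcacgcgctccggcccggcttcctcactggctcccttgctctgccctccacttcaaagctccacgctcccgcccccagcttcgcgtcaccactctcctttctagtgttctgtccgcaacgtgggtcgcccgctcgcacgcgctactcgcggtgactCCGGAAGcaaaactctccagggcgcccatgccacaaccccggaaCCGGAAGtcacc
Mrps11: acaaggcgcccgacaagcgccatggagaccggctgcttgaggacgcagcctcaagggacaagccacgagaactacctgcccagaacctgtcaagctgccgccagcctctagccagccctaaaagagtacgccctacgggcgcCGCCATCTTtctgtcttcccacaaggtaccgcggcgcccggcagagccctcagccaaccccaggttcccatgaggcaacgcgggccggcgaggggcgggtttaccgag
Mrps6: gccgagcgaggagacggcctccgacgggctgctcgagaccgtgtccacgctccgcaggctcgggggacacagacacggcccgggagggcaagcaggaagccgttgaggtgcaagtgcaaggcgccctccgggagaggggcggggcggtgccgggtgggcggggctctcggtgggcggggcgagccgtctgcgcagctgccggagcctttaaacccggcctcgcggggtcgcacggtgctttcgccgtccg
Mrpl3: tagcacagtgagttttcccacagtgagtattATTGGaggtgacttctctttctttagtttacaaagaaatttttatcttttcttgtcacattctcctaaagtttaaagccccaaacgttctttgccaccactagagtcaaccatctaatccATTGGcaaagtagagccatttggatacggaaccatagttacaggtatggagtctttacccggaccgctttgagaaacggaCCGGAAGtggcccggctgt
The sequences of Mrps18b and Mrps6 hold none of these letters in the stretch shown, whereas Mrpl3 holds the ETS letters near its start. The ETS match counted for Mrps18b lies outside the stretch shown.

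Most members carried Pol II near their ends in every organ. A region lay within 1 kb of either gene end in 65 of 78 members in heart (background 51.4% of all protein-coding genes), 76 in kidney (56.8%), 77 in liver (53.3%) and 69 in lung (54.7%). In 59 members (75.6%) this held in all 4 organs, against 39.7% of all genes. No member lacked such a region in every organ, against 32.1% of all genes. Of the rest, 15 had one in 3 organs, 2 in 2 organs and 2 in 1 organ. Regions at both ends were called in 49 members in heart (background 25.7%), 57 in kidney (31.7%), 47 in liver (29.2%) and 39 in lung (28.3%).

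Regions that filled the gene body were less frequent. At least 50% of the span was covered in 36 members in heart (background 16.1%), 43 in kidney (21.1%), 42 in liver (21.9%) and 31 in lung (15.1%), which are 46.2, 55.1, 53.8 and 39.7% of the 78. In 27 members (34.6%) this held in all 4 organs, against 8.04% of all genes, and in 24 (30.8%) in none, against 66.9%. To compare genes of like span, those of 2 to 20 kb were taken. Of the 63 members of that size, 31 were covered in heart (background 24.9%), 37 in kidney (32.4%), 37 in liver (31.2%) and 27 in lung (24.2%). A region near an end was present in 51 of the 63 in heart (background 56.2%), 62 in kidney (61.0%), 62 in liver (57.7%) and 56 in lung (58.9%). Of the 10 members longer than 20 kb, none was covered in heart (background 9.22%) or lung (7.82%), and 1 each in kidney (13.1%) and liver (15.9%). The background here is all protein-coding genes over 20 kb. With 10 members, these counts are too few to set long members apart from other genes of that span.

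The 3 groups of genes for large protein machines differed in how they were covered. Of 83 cytosolic ribosomal protein genes, 65 were covered in heart and 76 in kidney, with 77 in liver and 69 in lung. The respiratory chain group of 86 nuclear genes also includes those for ATP synthase subunits. Of these 86, 59 were covered in heart and 66 in kidney, with 59 in liver and 34 in lung. Mitochondrial ribosomal protein genes thus had the lowest shares of the 3 in heart, kidney and liver, and in lung their 39.7% stood beside 39.5% for the respiratory chain. No test of these differences was possible with 1 list per organ.

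**Figure D2:**
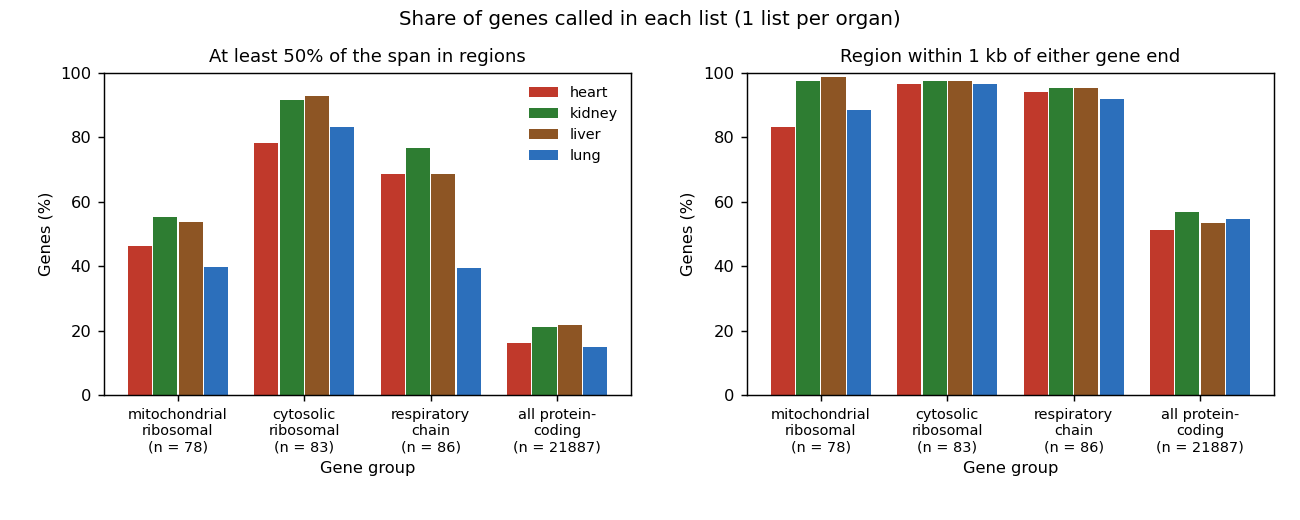
Bars give the percentage of genes, from 0 to 100, with at least 50% of the span inside regions (left) and with a region within 1 kb of either gene end (right), by gene group on the x axis and with 1 bar per organ and no error bars because each organ has 1 list. Mitochondrial ribosomal protein genes reach 39.7 to 55.1% on the left and 83.3 to 98.7% on the right, above all protein-coding genes in every organ.

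Pol II levels over the gene span were measured as tags per kb, in tags scaled by the authors to 10000000 in each list. The median over the 78 members was 8.50 tags per kb in heart and 10.7 in kidney, with 9.41 in liver and 5.91 in lung. The median member thus ranked above 79.5% of all genes in heart and 80.2% in kidney, with 77.2% in liver and 77.4% in lung. Levels followed the covered percent closely (Spearman's rho over the 78 members 0.97 to 0.99, from the same regions). They were lower in longer members (rho with span -0.50 in heart and -0.67 in kidney, with -0.58 in liver and -0.54 in lung). Over all genes, of which 39.0 to 43.3% were listed at 0, rho was 0.08 to 0.10. Coverage was nevertheless lower in longer genes over all genes too. Of all genes of 2 to 20 kb, 24.9% were covered in heart and 32.4% in kidney, with 31.2% in liver and 24.2% in lung. Of all genes over 20 kb, 9.22, 13.1, 15.9 and 7.82% were covered. The density of the densest region touching a member was less variable, with a median of 26.8 tags per kb in heart and 21.9 in kidney, with 21.1 in liver and 20.6 in lung. Over all genes with a region the medians were 26.5, 22.2, 22.4 and 21.0, so the members stood near the typical gene by this measure.

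**Figure D3:**
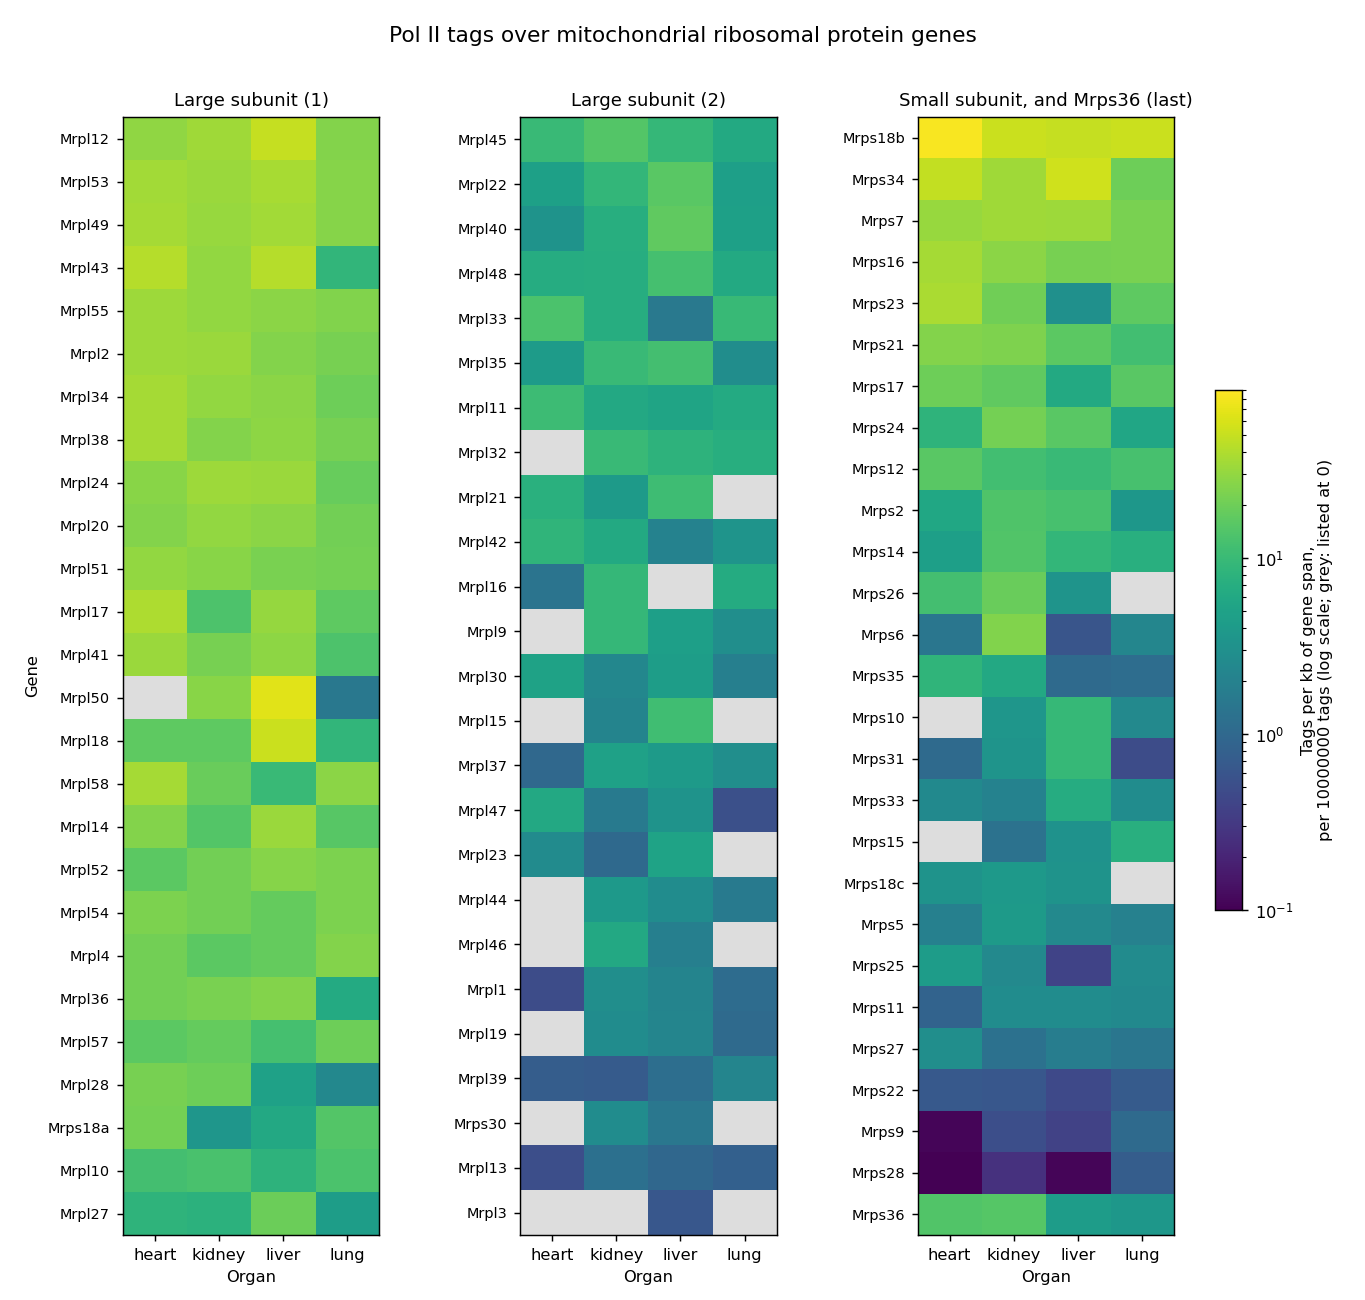
Each row is 1 of the 78 genes and each column an organ, and colour gives Pol II tags per kb of gene span per 10000000 tags on a log scale, with grey for genes listed at 0. Rows are ordered by the mean over organs within the subunit, from Mrps18b at 84.9 in heart down to genes with grey cells such as Mrpl3, and 11 cells are grey in heart and 8 in lung, with 1 each in kidney and liver.

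Genes for the large subunit were covered more often than those for the small subunit. Of the 51 large-subunit genes, 26 were covered in heart and 29 in kidney, with 31 in liver and 23 in lung. Of the 26 small-subunit genes, 9, 13, 11 and 8 were covered, in the same order. The median was 10.6 tags per kb for the large and 4.50 for the small subunit in heart, 10.1 and 8.73 in kidney, 11.9 and 4.82 in liver, and 6.34 and 2.68 in lung. The median span was 7.31 kb for the large and 9.01 kb for the small subunit. Presence near an end differed less, in 40 of 51 and 19 of 26 genes in all 4 organs. By origin, 22 of 48 genes with a bacterial counterpart were covered in heart and 27 in kidney, with 26 in liver and 19 in lung. Of the 29 genes for proteins specific to mitochondrial ribosomes, 13, 15, 16 and 12 were covered, so the shares of the 2 origins lay within a few members of each other.

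In the small subunit Mrps18b stood first in heart, kidney and lung. This gene (chr17:35910380-35916440) codes for 1 of 3 counterparts of bacterial S18. It had 84.9 tags per kb in heart (95% Poisson interval 77.6 to 92.5), 51.5 in kidney (47.2 to 56.1), 50.1 in liver (46.2 to 54.2) and 51.6 in lung (46.7 to 56.7). Heart was the highest organ and its counting interval did not overlap the others, which overlapped each other. These intervals rest on tags spread evenly over the whole region. The region over Mrps18b also covered Ppp1r10, a regulatory subunit of protein phosphatase 1 with a start 756 bp away on the opposite strand, and Atat1, a tubulin acetyltransferase. The region was 18.1 kb long in heart, so the tags are not those of 1 gene. The other counterparts of S18 were lower. Mrps18c had 3.32 tags per kb in heart, 3.89 in kidney and 3.33 in liver and was listed at 0 in lung. Mrps18a, the counterpart in the large subunit, had 21.9 in heart and 3.60 in kidney, with 6.14 in liver and 14.6 in lung.

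Mrps34, a small-subunit protein without a bacterial counterpart, followed with 47.6 tags per kb in heart and 33.8 in kidney, with 54.9 in liver and 19.9 in lung. Its whole span of 1.17 kb lay inside regions of 9.55 to 66.6 kb that held 4 to 9 other genes. Mrps7, the counterpart of bacterial S7, had 31.9, 33.9, 33.3 and 22.7 tags per kb in the same order. Mrps16 had 35.9, 27.5, 22.4 and 23.1. Lung was lowest in Mrps34 and Mrps7, and liver in Mrps16.

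In the large subunit Mrpl50 and Mrpl18 had the highest levels in liver. Mrpl50, a protein specific to mitochondrial ribosomes, had 66.9 tags per kb in liver, 26.8 in kidney and 1.51 in lung and was listed at 0 in heart. In liver it lay in a region of 95.5 kb that it shared with other genes. Mrpl18, the counterpart of bacterial L18, had 51.5 tags per kb in liver and 16.6, 16.5 and 8.70 in heart, kidney and lung. Its liver region of 15.7 kb also held Tcp1, a subunit of the cytosolic chaperonin, and Acat3, an acetyl-CoA acetyltransferase. How much of these tags belongs to the ribosomal protein genes cannot be told apart.

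Mrpl12, the counterpart of bacterial L12 in the stalk that receives translation factors, had 29.2 tags per kb in heart and 33.7 in kidney, with 49.1 in liver and 25.1 in lung. Its liver region was 253 kb long and held 20 other genes. Mrpl43, specific to mitochondrial ribosomes, starts beside Twnk, the helicase of mitochondrial DNA. Mrpl43 had 41.7, 30.0, 42.3 and 8.87 tags per kb in heart, kidney, liver and lung, and Twnk had 41.7, 30.0, 42.3 and 14.2. Both genes lay whole inside the same region outside lung, where Mrpl43 was 50.5% and Twnk 67.9% covered. Mrpl17, the counterpart of bacterial L17, had 38.5 tags per kb in heart and 13.4 in kidney, with 30.4 in liver and 16.6 in lung, and no other gene within 15426 bp. Mrpl58, a peptidyl-tRNA hydrolase built into the large subunit, had 36.3, 19.2, 9.95 and 27.3, with heart and lung above kidney and liver. Its main heart region of 15.8 kb also overlapped Atp5h and Kctd2, so these tags are not those of Mrpl58 alone. Atp5h had 50.0, 31.3, 29.5 and 27.3 tags per kb in the same order.

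The whole span lay inside regions in 18 members in heart (background 5.56%), 25 in kidney (7.59%), 22 in liver (9.96%) and 18 in lung (4.36%). This held in all 4 organs in 11 members (14.1%, background 2.32%). These were Mrpl2, Mrpl12, Mrpl34, Mrpl38, Mrpl49, Mrpl51, Mrpl53, Mrpl55, Mrps7, Mrps16 and Mrps34. Every region over them, in every organ, also overlapped at least 1 other protein-coding gene. Their spans were 0.825 to 7.05 kb and the regions 4.87 to 253 kb. Mrpl49 had 36.1, 31.4, 35 and 26.4 tags per kb in heart, kidney, liver and lung, the same as its neighbour Fau, which codes for a cytosolic small-subunit ribosomal protein fused to a ubiquitin-like one. Both lie inside 1 region in each organ.

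At the other end stood genes with little or no Pol II called. Mrpl3, the counterpart of bacterial L3 (24.2 kb, chr9:105053268-105077466), was listed at 0 in heart, kidney and lung. Its only region was 1.18 kb long at the start, in liver, and gave 0.639 tags per kb. Mrps22, a small-subunit protein specific to mitochondrial ribosomes, held 1 region of 0.5 kb in each organ, at 4 different places, and only that in liver reached a gene end. Mrpl15 and Mrps30 had a region near an end in kidney and liver only. Mrps28, the longest member at 122 kb, had 0.0719 tags per kb in heart and 0.265 in kidney, with 0.108 in liver and 0.748 in lung, and Mrps9 had 0.109, 0.514, 0.382 and 1.05. The densest region of Mrps9 and Mrps28 differed 1.31-fold and 1.22-fold between the highest and lowest organ.

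Gaps in single organs were most frequent in heart. A total of 11 members (14.1%) were listed at 0 in heart, among them Mrpl15, Mrpl19, Mrpl32, Mrpl44, Mrpl46, Mrpl9, Mrps10, Mrps15 and Mrps30. Only Mrpl3 was listed at 0 in kidney and only Mrpl16 in liver. In lung 8 (10.3%) were, among them Mrpl21, Mrpl23, Mrps18c and Mrps26. A gene listed at 0 can still have a region near its start but outside its span. This was so for Mrpl16 in liver and for Mrps18c, Mrps26 and Mrpl46 in lung. No member listed at 0 in heart had a region near an end there. Of all protein-coding genes, 43.0% were listed at 0 in heart and 39.0% in kidney, with 43.3% in liver and 39.7% in lung, so heart did not stand apart over all genes. Mrps23, Mrps31 and Mrps36 each lacked a region near an end in 1 organ, liver for Mrps23 and lung for the other 2. Mrps23 and Mrps31 still had a region within 1 kb of an annotated start in that organ. The scaled tag threshold was 9.11 tags per 10000000 in heart, 8.27 in lung, 7.23 in kidney and 6.98 in liver, the reverse of the order of tag totals. Whether depth accounts for these gaps was not tested.

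Differences between organs were read as the ratio of each organ to the median of the other 3, in the 62 members with tags in all 4 lists (79.5%, background 44.4%). A ratio of at least 2 was found in 10 members in heart (background 18.3% of 9713 genes), 11 in kidney (22.8%), 10 in liver (27.1%) and 4 in lung (13.0%). These are 16.1, 17.7, 16.1 and 6.45% of the members. A ratio of at most 0.5 was found in 9 in heart (background 24.7%), 3 in kidney (13.3%), 12 in liver (20.6%) and 14 in lung (25.5%), or 14.5, 4.84, 19.4 and 22.6%. All 8 shares lay below the share of all genes. After each list was divided by its median over the 9713 genes, the higher and lower counts were 15 and 6 in heart (background 21.6 and 21.8%), 7 and 4 in kidney (16.7 and 18.6%), 8 and 12 in liver (21.9 and 24.9%) and 4 and 10 in lung (19.6 and 17.5%). The 15 members higher in heart are then 24.2%, above the share of all genes. By the densest region instead of the whole span, 1 member was at least 2-fold higher in liver (background 2.99%) and none in heart (2.82%), kidney (0.196%) or lung (0.0515%). By the same measure 2 members were at most 0.5-fold in lung (background 0.803%) and none in heart (0.0824%), kidney (0.319%) or liver (0.597%). The 2-fold differences thus lay in how much of a gene was covered more than in the density of its regions, which had to exceed the caller's threshold to be listed.

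The median ratio of the members was 1.10 in heart and 1.08 in kidney, with 1.09 in liver and 0.76 in lung. Over all genes it was 0.98, 1.14, 1.12 and 0.79. The respiratory chain genes, whose products include the partners of the proteins made on mitochondrial ribosomes, had 1.46, 1.15, 0.98 and 0.43. In heart and lung the members lay between all genes and the respiratory chain. They were close to the cytosolic ribosomal protein genes there, which had 1.09 in heart and 0.78 in lung. After scaling, the median in lung was 1.02 in the members, 1.04 in the cytosolic ribosomal protein genes and 1.04 over all genes. Of the 76 respiratory chain genes with tags in all lists, 46 were at most 0.5-fold in lung, against 14 of 62 members, and after scaling 35 and 10. In heart 16 respiratory chain genes were at least 2-fold higher. The ratio of the highest to the lowest organ had a median of 2.81 in the members, 3.98 in the respiratory chain genes, 1.73 in the cytosolic ribosomal protein genes and 4.22 over all genes.

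**Figure D4:**
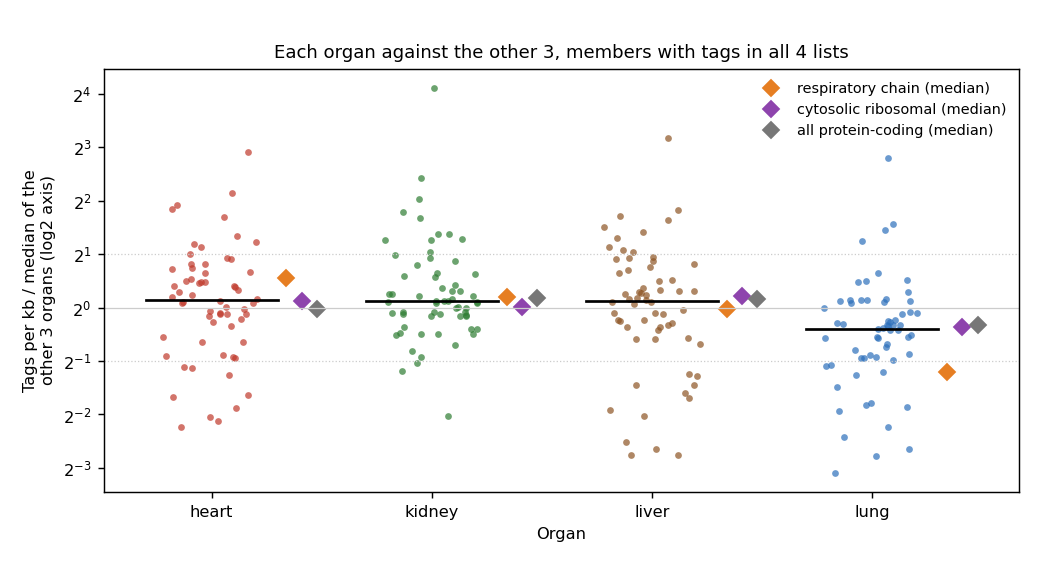
Each point is 1 of 62 members, placed on a log2 axis by the ratio of its tags per kb in that organ to the median of the other 3 organs, with black lines at the median of the members and diamonds at the medians of 3 other gene groups. The black lines lie at 1.10 in heart and 1.08 in kidney, with 1.09 in liver and 0.76 in lung, and the respiratory chain diamond lies at 1.46 in heart and 0.43 in lung.

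Mrps6, the counterpart of bacterial S6, showed the widest ratio between organs among the members with tags in all 4 lists. Its level was 1.43 tags per kb in heart (95% Poisson interval 1.12 to 1.79), 24.8 in kidney (23.8 to 25.8), 0.594 in liver (0.456 to 0.756) and 2.24 in lung (1.91 to 2.62). Kidney was the only organ in which the gene, 53.9 kb long, was covered, by a region of 66.6 kb, and the ratio to liver was 41.7. Inside the same span lies Slc5a3, the transporter of the osmolyte myo-inositol, whose span begins at nearly the same base. Slc5a3 was 100% covered in kidney and 9.5, 7.24 and 19.4% in heart, liver and lung. The kidney region ran past the ends of both genes. By the densest region the ratio was 1.23.

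**Figure D5:**
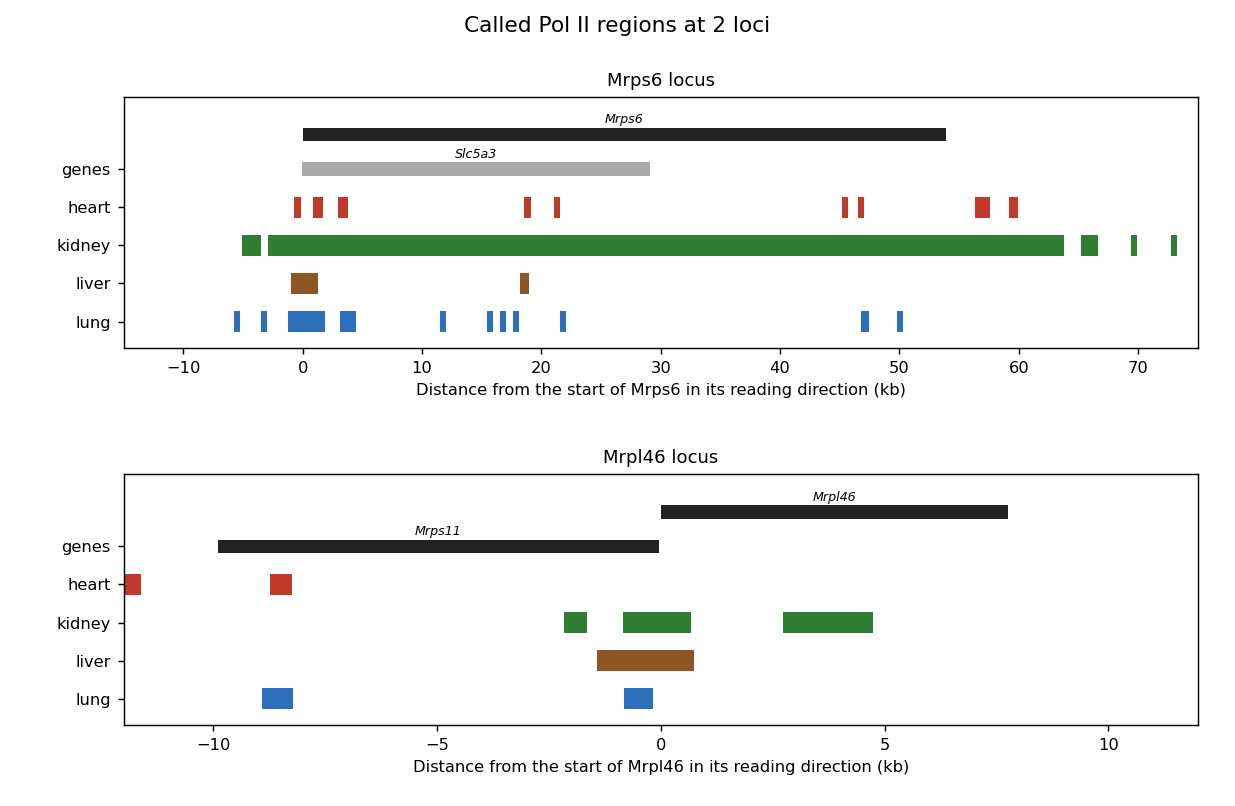
Bars show called regions of each organ and gene spans (black for members, grey for other genes) around Mrps6 and Mrpl46, on x axes of distance in kb from the start of the named gene. Around Mrps6 the kidney region spans 66.6 kb where other organs have short regions, and at Mrpl46 kidney and liver have 1 region over both starts.

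Other members also differed widely between organs. Mrps31, a small-subunit protein specific to mitochondrial ribosomes, had 9.48 tags per kb in liver and 3.36 in kidney, against 1.05 in heart and 0.489 in lung, a ratio of 19.4. No region over it touched another gene, and its region at the start was 7.29 kb long in liver. Its only region in lung was 0.5 kb long and lay more than 1 kb inside the gene span. That region was still within 1 kb of the annotated start, which lies 891 bp inside the span. Mrps23 had 37.7 in heart, 20.6 in kidney, 16.5 in lung and 3.02 in liver, a ratio of 12.5, and its heart region of 18.2 kb also reached Cuedc1. Cuedc1 was 98.5% covered in heart and 1.05% in liver. Mrpl47 had 6.11 in heart and 0.528 in lung, a ratio of 11.6. Ndufb5, a complex I subunit that starts 308 bp away on the opposite strand, had 8.42 and 1.95. Both genes of that pair were highest in heart.

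The next ratios were 11 for Mrps25, 10.4 for Mrps28, 9.66 for Mrps9, 9.26 for Mrpl28, 8.46 for Mrpl33 and 8.05 for Mrps35. Mrps25, Mrpl28, Mrpl33 and Mrps35 were highest in heart, and Mrps28 and Mrps9 in lung. When only tags within 1 kb of the ends were counted, Mrps25 was highest in kidney, with a ratio of 28.9. Liver was lowest in Mrps25, Mrpl33 and Mrps35, lung in Mrpl28 and heart in Mrps9 and Mrps28. The smallest ratios were 1.31 for Mrpl54, 1.36 for Mrpl55, 1.37 for Mrpl49 and 1.38 for Mrpl51. Of the 22 members with a ratio under 2, 19 had their highest organ's main region shared with another gene, as did 7 of the 14 with a ratio of at least 5. Such sharing was found in 42 of all 62 members with tags in all 4 lists, and no share over all genes is given here. Between organs, levels over the 78 members correlated with Spearman's rho of 0.68 to 0.80, close to 0.66 to 0.80 over all genes. Heart had the highest level in 26 of the 62 members (41.9%, against 28.5% of the 9713 genes) and lung the lowest in 29 (46.8%, against 33.8%). These 62 leave out every member listed at 0 in any organ. There were 11 at 0 in heart, 8 in lung and 1 each in kidney and liver. Over all 78 members the median was 8.50 tags per kb in heart, below 10.7 in kidney and 9.41 in liver.

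Mitochondrial ribosomal protein genes lay close to other genes. Another protein-coding gene lay within 1 kb of 47 of the 78 (60.3%), against 31.6% of all genes, 60.5% of respiratory chain genes and 38.6% of cytosolic ribosomal protein genes. A divergent partner, that is a gene on the opposite strand whose start lies within 1 kb and points away, was found for 24 of 69 members (34.8%). This share was 8.48% over all genes, 27.5% in the respiratory chain and 12.7% in the cytosolic ribosomal protein genes. Several partners also serve mitochondria. Mrps12, the counterpart of S12 in the decoding centre, starts 147 bp from Sars2, the mitochondrial seryl-tRNA synthetase. Mrpl43 starts 116 bp from Twnk, and Mrps27 starts 108 bp from Ptcd2. These pairs were singled out after their values were seen.

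Tags per kb of partners could differ, but so did their spans. Averaged over organs, Mrps12 (2.18 kb) had 12.4 tags per kb and Sars2 (11.9 kb) 2.95, whereas the tags over the whole span were 27.0 and 35.1. Mrpl40 (4.62 kb) had 8.0 tags per kb and Hira (93.6 kb) 1.06, with 37.0 and 99.3 tags over the span. Mrpl57 had 16.6 tags per kb and Ska3 1.51, with 47.6 and 29.9 tags. Mrpl18 had 23.3 tags per kb and Tcp1 24.1. The order of partners thus turned with the measure in the first and second of these pairs. The 24 members with a divergent partner had a region within 1 kb of the start in 20 cases in heart and 24 in kidney, with 24 in liver and 23 in lung. The 45 other members with a start had one in 38, 43, 45 and 37. Regions were not stranded, so those at such starts cannot be assigned to 1 of the 2 genes.

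Mrpl46 and Mrps11 form the only divergent pair made of 2 members, with starts 42 bp apart (chr7:78775341-78783089 and chr7:78783131-78792988). Mrpl46 was listed at 0 in heart and lung and had 6.14 tags per kb in kidney and 1.89 in liver. Mrps11 had 0.872 in heart and 2.70 in kidney, with 2.76 in liver and 2.56 in lung. A single region covered both starts in kidney (1.51 kb) and liver (2.17 kb), and these were the only regions shared by 2 members. Lung had a region on the Mrps11 side only, and heart none within 1 kb of the starts.

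Coverage was also found in members without near neighbours. Among the 31 members with no other protein-coding gene within 1 kb, 12 were covered in heart (background of such genes 10.7%), 15 in kidney (14.8%), 15 in liver (16.3%) and 9 in lung (10.1%). A region near an end was present in 26 of them in heart (background 41.4%), 30 in kidney (46.8%), 31 in liver (43.3%) and 24 in lung (44.5%). Their median was 8.31 tags per kb in heart and 9.02 in kidney, with 6.68 in liver and 3.4 in lung. The 47 members with a near neighbour had medians of 11.9, 13.8, 12 and 7.19.

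Other genes for mitochondrial translation were read the same way. Of 5 ribosomal proteins with other symbols, 5 were covered in heart and 4 in kidney, with 5 in liver and 3 in lung. Gadd45gip1 had 42.1, 39.7, 33.5 and 32.2 tags per kb in heart, kidney, liver and lung, the highest mean of all genes on these lists. Of 13 translation factors, 2 were covered in heart and 4 in kidney, with 5 in liver and 1 in lung (15.4, 30.8, 38.5 and 7.69%), with a region near an end in 13, 12, 12 and 11. Tufm, the elongation factor that brings aminoacyl-tRNAs, was covered in all 4 organs at 20.9 to 25 tags per kb. Of 19 mitochondrial tRNA synthetases, 1 was covered in heart and 2 in kidney, with 2 in liver and 1 in lung, although 17 to 19 had a region near an end. These shares, the lowest 5.26%, all lay below the 16.1, 21.1, 21.9 and 15.1% of all genes in the same order. The median span of the synthetase genes was 32.9 kb, against 7.69 kb for the ribosomal protein genes, and of all genes over 20 kb 9.22% were covered in heart and 13.1% in kidney, with 15.9% in liver and 7.82% in lung.

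Of 25 assembly and rRNA modification factors, 6 were covered in heart and 5 in kidney, with 6 in liver and 4 in lung (24, 20, 24 and 16%). Over all genes the shares were 16.1, 21.1, 21.9 and 15.1%, near those of these factors in kidney, liver and lung. Mpv17l2, a ribosome assembly factor, was high in every organ (46.5, 29.7, 28.8 and 29.9 tags per kb), while Mettl15 and Fastkd2 stayed at or below 0.421. Wars2, a tRNA synthetase gene, was as low, at 0.112 to 0.455. Of 10 genes for mitochondrial transcription and replication, 2, 4, 5 and 3 were covered (20, 40, 50 and 30%, against the same shares of all genes). Lrpprc, which stabilises mitochondrial mRNAs, was 84.1% covered in liver and 4.8 to 12.2% in the other organs. Of 10 regulators of mitochondrial biogenesis, 3, 5, 6 and 2 were covered (30, 50, 60 and 20%). Ppargc1b, a coactivator of such genes, had 33.5 tags per kb in heart and 16.6 in kidney, with 15.5 in liver and 0.367 in lung, whereas Gabpa, which binds the ETS letters, had 4.69, 1.76, 2.92 and 1.98. A region near an end was present in 21, 25, 25 and 24 of the 25 assembly and modification factors in heart, kidney, liver and lung. The 10 transcription and replication genes had 10, 10, 10 and 9, and the 10 regulators 10, 10, 9 and 9. Over all genes these shares were 51.4, 56.8, 53.3 and 54.7%. Across these lists presence at an end was thus frequent in every organ, as in the ribosomal protein genes, and coverage of the gene body was less so.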

How the data were processed

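Alignment and region calling used Bowtie2 2.2.8, HOMER 4.8 and the build mm10, according to the submitters' processing notes. The authors ran findPeaks in histone style, with windows of 500 bp and a Poisson p threshold of 0.001, and no control library is named in the command, per the file headers. The deposited signal of a region is its tag count scaled by the authors to 10000000. The deposited region score and the deposited clonal fold ratio are the caller's own, per the file headers. The score served only to rank regions within a list. The treatment of tags with several matches was not given in the sources used here, and members with close copies elsewhere are uncertain.

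Gene spans came from a RefSeq table of GRCm38.p6, the assembly behind mm10, and strand and starts from its promoter table (69 of 78 members). The covered percent is the share of the span, introns included, inside regions. A region counted as near an end with at least 1 bp within 1 kb. Tags were spread evenly over a region's length, summed inside the span and divided by its kb. A gene without a region is listed at 0 and got no fold. Intervals are 95% Poisson intervals on the tags so assigned to a span, rounded to whole tags. They take the even spread as given and are not intervals on a count observed in the gene itself. Each list has 1 sample, so no test was run. Subunits, origins and gene lists were assigned from general knowledge, and members and lists were chosen with earlier results of these data known.

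Named members were the 4 with the most and the 4 with the fewest tags per kb per organ, the 10 largest and 4 smallest ratios between organs, those lacking a region near an end in some list, up to 8 long genes under 50% in 3 or 4 lists, up to 12 past 2-fold in 1 organ, and some set by their place in the ribosome. Of the lists, the 3 highest and 3 lowest were to be named, and the other names were chosen after their values were seen. Python 3.11.15, numpy 2.4.6, pandas 2.3.3, scipy 1.17.1 and matplotlib 3.10.9 were used. The interval arithmetic was tested on 2000 simulated gene intervals, of which 100% gave the same values as per-base counts. Alternatives changed the covered threshold, the end window, the regions kept and the way tags were assigned.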

Additional observations from a re-analysis of the deposited data

How the results depend on the processing

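Of 170 recomputed summary values, 129 stayed within 1.5 times the original and 41 moved. Each list has 1 sample, so no replicate could be left out, and the depth of the lists (9880184 to 20058183 tags) limits which genes are listed at 0. No paired analysis was possible because each organ has 1 list and no test was run. With the 50% of regions of highest score, 29.5% of members were covered in heart and 33.3% in liver, 25.6% had a region near an end in all 4 lists, and medians were 2.60 tags per kb in heart and 3.94 in kidney, with 2.73 in liver and 2.42 in lung. Needing both ends gave 60.3% in liver, 50.0% in lung and 38.5% in all 4. By the densest region, medians were 24.7, 21.9, 20.8 and 20.1 in heart, kidney, liver and lung. In lung the median was 3.4 without near neighbours and 8.96 within 1 kb of the ends. The 2-fold calls moved most. By the densest region they were 1.61% higher in liver, 3.23% lower in lung and 0% otherwise. Within 1 kb of the ends, 6.78% were higher in heart, 5.08% higher and 8.47% lower in liver, and 3.39% higher in lung. With regions of highest score, 30.4% were higher in heart, 30.4% lower in heart, 30.4% lower in liver, 21.7% lower in kidney and 17.4% higher in lung, of 23 members. Scaling lists to 1 median gave 11.3% higher in kidney. Without near neighbours, 29.2% were higher in kidney, 29.2% lower in liver and 12.5% higher in lung. Spans of 2 to 20 kb gave 4.08% higher in lung. Regions of at least 10 tags gave 8.62% lower in heart and 3.45% higher in lung, and equal numbers of regions 3.45% higher in lung. The alternatives on 2-fold calls, the scaling and the span limits were chosen after seeing the data. The cause of these moves was not tested, apart from the fewer regions or genes that an alternative keeps.

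Among the ratios of single members, 48 values stayed and 20 moved. By the densest region Mrps6 fell to 1.23, Mrps31 to 1.20, Mrps23 to 2.11, Mrpl47 to 1.92 and Mrpl28 to 2.04. Within 1 kb of the ends Mrps6 was at 5.84, and Mrps25 was highest in kidney at 28.9.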
